A study of Homo sapiens with 18 samples.

Results

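Human umbilical vein endothelial cells (HUVEC, lining cells of a vein kept in culture) were given CD63+ extracellular vesicles of Jurkat T cells and set against HUVEC given beads that carried only immunoglobulin G (IgG). The arrays were chosen by their titles, 3 for the Jurkat CD63+ vesicles and 3 for the IgG beads, which makes 6 of the 18 arrays of the series. Extracellular vesicles (EVs) are membrane particles that cells shed. Jurkat is a human T cell leukaemia line, here with its CD47 gene intact, and its EVs were held on the beads by an antibody to CD63, a membrane tetraspanin common on vesicles of endosomal origin. Both groups were co-cultured for 3 days, per the series' design text. The series also holds HUVEC with MHC class 1 (MHC1) captured Jurkat EVs, HUVEC with CD63+ or MHC1+ EVs of JinB8, a Jurkat derivative without CD47, and untreated HUVEC, with 3 arrays each. In the titles of the JinB8 arrays the number in the line's name changes from array to array. Their bracketed part always says JinB8, which is used here. Per the labels, conditioned serum-free medium of replicate flasks was pooled before the EVs were purified, so the arrays of an EV group may share 1 EV preparation. The amount of EVs given to the cells is not given in the sources used here. Whether the replicate arrays stem from independent cultures is unstated. The p-values therefore rest on the scatter among the arrays alone, and this scatter may be technical. All levels below are log2 RMA signals, on which a difference of 1 is a 2-fold change, and the number of arrays limits their precision.

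Endothelial cells make their own cholesterol and fatty acids, and also take sterols up from the medium. The transcription factors SREBP-1 and SREBP-2 (genes SREBF1 and SREBF2) are held in the endoplasmic reticulum by INSIG proteins while sterols are plentiful. When sterols fall, SCAP carries them to the Golgi, where they are cut and released to switch on the genes of the pathway, INSIG1 among them. STC1 encodes stanniocalcin 1, a secreted glycoprotein first described in fish as a calcium-regulating hormone and expressed by many human tissues, vessels included.

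IgG bead replicate 3 stood apart from the other bead arrays and had to be judged before any result. Over all probe sets its median Pearson's r with the other 17 arrays was 0.636, against 0.988 to 0.989 for the 3 Jurkat CD63+ arrays and 0.987 and 0.991 for bead replicates 1 and 2. Its values were compressed, with an SD of 1.57 against 2.16 to 2.20 in the Jurkat CD63+ arrays. Among the 18417 genes tested, the brightest 10% had a median of 6.11 in bead replicate 3 and 9.31 in bead replicates 1 and 2, whereas the dimmest 10% lay higher in replicate 3 (3.91 against 3.17). With all 3 bead arrays the median difference of these brightest genes, Jurkat CD63+ EVs minus IgG beads, was therefore 1.10, and without replicate 3 it was -0.04. Over all genes the median difference was -0.06 with 3 bead arrays and 0.01 with 2. Every comparison was fitted with all 18 arrays, then without bead replicate 3 and the equally discordant untreated replicate 3 (16 arrays), and last also without Jurkat MHC1+ replicate 1, whose r was 0.947 (15 arrays). The differences from the beads are the same with 16 and 15 arrays, since Jurkat MHC1+ replicate 1 bears only on the estimate of the spread.

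**Figure D1:**
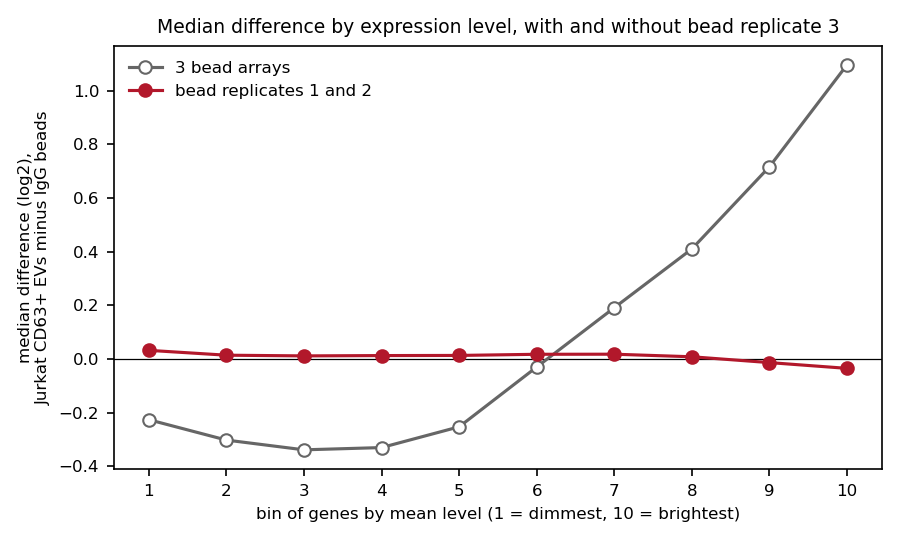
Median difference (log2, Jurkat CD63+ EVs minus IgG beads) in 10 equal bins of the 18417 genes ranked by mean level, with all 3 bead arrays (open points) and with bead replicates 1 and 2 (filled points). With 3 bead arrays the medians run from -0.34 in bin 3 to 1.10 in the brightest, and with 2 they stay between -0.04 and 0.03.

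The cells carried the markers of endothelium. PECAM1, an adhesion receptor of endothelial junctions, stood at 11.70, 11.66 and 11.76 in the Jurkat CD63+ arrays and at 11.70 and 11.81 in bead replicates 1 and 2, but at 5.90 in bead replicate 3. CDH5, the cadherin of endothelial junctions, stood at 11.76, 11.72 and 11.78 in the Jurkat CD63+ arrays, against 11.89 and 11.82 in bead replicates 1 and 2 and 6.97 in replicate 3. The 28 endothelial identity genes averaged 8.27 to 8.31 in the Jurkat CD63+ arrays, against 8.28, 8.29 and 6.27 in the bead arrays. Transcripts of the EV donor cells did not stand out. The 18 T cell markers averaged 3.92 to 4.08 in the Jurkat CD63+ arrays and 3.96 and 4.10 in bead replicates 1 and 2, and 0 of the 18 had an unadjusted limma p under 0.05 with 16 arrays. With 15 arrays 1 of them did, in the downward direction (1.39% of all genes). In bead replicate 3 they averaged 4.99. CD3D, a chain of the T cell receptor complex, stood at 3.48, 3.63 and 3.41 in the Jurkat CD63+ arrays and at 3.76, 3.82 and 5.25 with beads. Markers of fibroblasts and smooth muscle averaged 4.50 to 4.67 in the Jurkat CD63+ arrays and 4.55 and 4.60 in bead replicates 1 and 2, those of monocytes 4.48 to 4.53 and 4.44 and 4.50, and those of epithelium 5.08 to 5.24 and 5.13 and 5.22.

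STC1 rose with Jurkat CD63+ EVs, with and without bead replicate 3. Its level was 8.19, 8.28 and 8.21 in the 3 Jurkat CD63+ arrays, against 6.53, 6.66 and 6.94 in the 3 bead arrays. The groups did not overlap, and bead replicate 3 was the highest of the beads. The rise was 1.51 ± 0.18 (SE) with 18 arrays, which is 2.86-fold (limma adjusted p = 0.0088), and 1.63 ± 0.14 without the discordant arrays, or 3.09-fold (limma adjusted p = 0.00015). It was the only gene of 18417 called at an adjusted p under 0.05 with 18 arrays (0.00543% up and 0.0% down), and the only one with 16. At an unadjusted p under 0.05, 108 genes were higher (0.586%) and 87 lower (0.472%) with 18 arrays, and 152 were higher and 134 lower with 16. The call was lost when bead replicate 1, bead replicate 2 or any 1 Jurkat CD63+ array was left out of the 18, where the count of called genes was 0, and was kept in each of the 5 such steps from the 16 arrays. The paralogue STC2 stood at 6.98, 6.87 and 7.02 with Jurkat CD63+ EVs, against 6.98, 7.19 and 5.75 with beads. Without replicate 3 the difference for STC2 was -0.13 ± 0.13.

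With 15 arrays 8 genes were called, 7 that rose (0.038% of the genes tested) and 1 that fell (0.00543%). Besides STC1, the 6 other rises all belong to lipid synthesis or its control: INSIG1, MSMO1, DHCR7, SCD, FASN and FADS2. The gene that fell was TGFBI, which encodes an extracellular matrix protein named for its induction by TGF-beta. In the 16 arrays these 7 genes had adjusted p-values of 0.064 to 1.0, and none passed the adjusted threshold. The lists of lipid genes used here, and the members named from them, were chosen with earlier results of these data known, so their direction is a description.

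**Figure D2:**
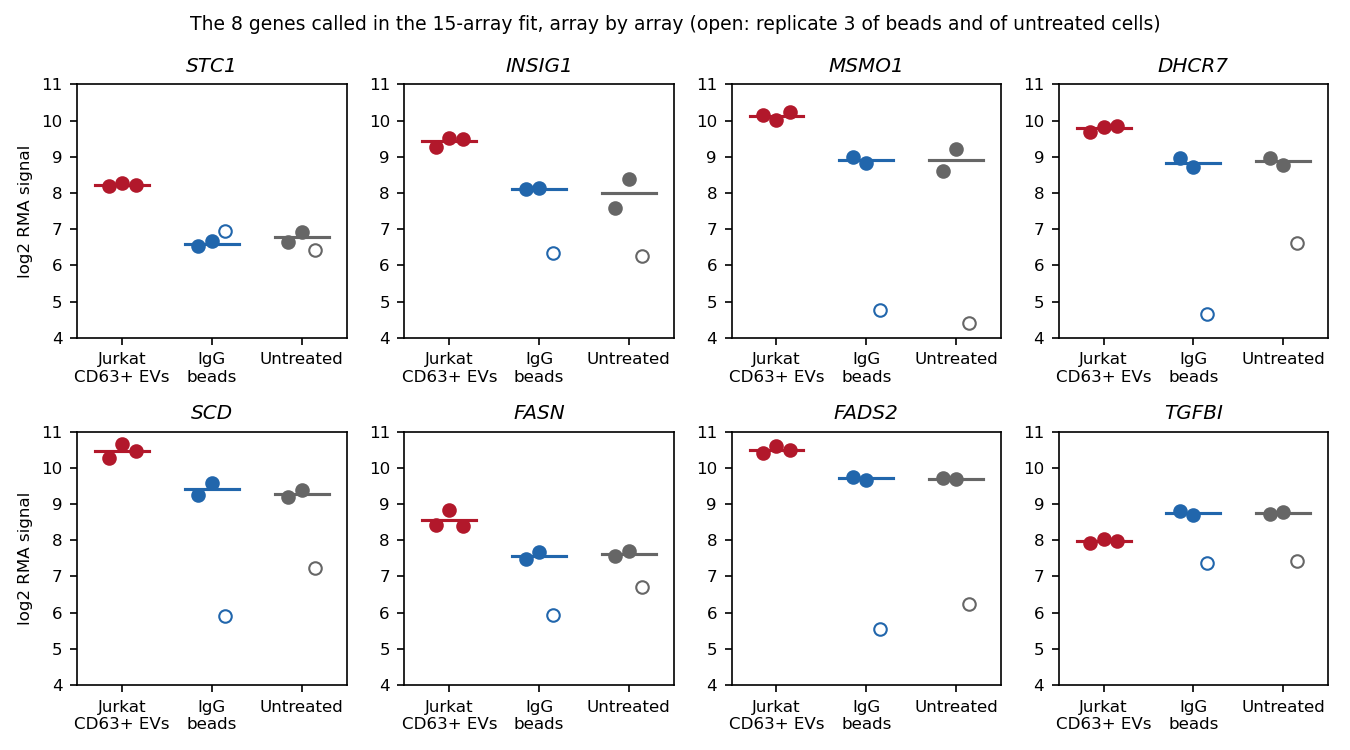
Level (log2 RMA signal) of the 8 genes called in the 15-array fit in each Jurkat CD63+, IgG bead and untreated array, where open points are bead replicate 3 and untreated replicate 3 and lines are means without those 2 arrays. For each of the 7 genes that rose, the 3 Jurkat CD63+ arrays lie above every bead array, and for TGFBI they lie below bead replicates 1 and 2 but above replicate 3 at 7.38.

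The promoters of 5 lipid genes are shown because SREBP and its partner NF-Y are known to act through short motifs near the start of such genes. The stretches are the 250 bases before the annotated start, from RefSeq on GRCh38.p14, printed 5′ to 3′ on the strand of the gene. INSIG1 lies at chr7:155297628-155297877, MSMO1 at chr4:165327419-165327668 and SCD at chr10:100346983-100347232, all on the plus strand. HMGCS1 lies at chr5:43313413-43313662 on the minus strand and SREBF2 at chr22:41832855-41833104 on the plus strand. Capitals mark the CCAAT box, the E box CACGTG and the sterol regulatory element, searched on both strands (ATTGG is CCAAT read from the other strand).
INSIG1: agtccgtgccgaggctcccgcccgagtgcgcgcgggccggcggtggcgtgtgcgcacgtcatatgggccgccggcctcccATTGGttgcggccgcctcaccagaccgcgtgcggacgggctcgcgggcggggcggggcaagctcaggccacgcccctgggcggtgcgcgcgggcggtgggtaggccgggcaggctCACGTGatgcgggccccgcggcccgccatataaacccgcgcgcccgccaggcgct
MSMO1: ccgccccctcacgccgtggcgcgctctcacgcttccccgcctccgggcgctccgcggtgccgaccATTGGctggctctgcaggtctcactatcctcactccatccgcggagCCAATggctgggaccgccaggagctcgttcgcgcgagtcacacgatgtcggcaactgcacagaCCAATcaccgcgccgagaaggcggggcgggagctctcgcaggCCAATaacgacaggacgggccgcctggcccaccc
SCD: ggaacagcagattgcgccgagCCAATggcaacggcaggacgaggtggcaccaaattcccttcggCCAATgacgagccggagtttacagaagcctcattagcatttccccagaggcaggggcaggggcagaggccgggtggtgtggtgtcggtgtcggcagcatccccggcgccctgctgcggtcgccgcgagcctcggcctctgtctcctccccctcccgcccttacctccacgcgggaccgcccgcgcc
HMGCS1: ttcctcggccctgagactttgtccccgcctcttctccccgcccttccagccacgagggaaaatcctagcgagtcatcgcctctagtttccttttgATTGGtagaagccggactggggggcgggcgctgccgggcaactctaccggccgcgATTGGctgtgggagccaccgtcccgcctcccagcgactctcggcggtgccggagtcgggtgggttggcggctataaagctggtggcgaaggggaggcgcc
SREBF2: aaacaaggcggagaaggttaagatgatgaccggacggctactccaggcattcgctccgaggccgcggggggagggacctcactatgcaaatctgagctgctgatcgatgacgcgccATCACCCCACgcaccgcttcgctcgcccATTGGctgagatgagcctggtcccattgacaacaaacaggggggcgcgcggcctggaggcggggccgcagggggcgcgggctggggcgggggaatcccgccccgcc
The sterol regulatory element in its 10-letter form was in 1 of the 38 lipid genes with a promoter sequence (2.63%). That gene is SREBF2, where it lies from 134 to 125 bases before the start. Of the 27305 promoters of the same length, 0.0366% held it. The looser TCACNCCAC overlaps it there, was in no other of these lipid genes, and was in 0.875% of all promoters. The other stretches printed here hold neither form. The CCAAT box was in 21 of the 38 lipid genes with a promoter in the table (55.3%), against 33.0% of all promoters, and occurs 4 times in the stretch of MSMO1. The E box CACGTG was in 4 of the 38 (10.5%), INSIG1 among them, against 6.49% of all promoters. A match is a description of these letters and not a bound site.

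Most enzymes of cholesterol synthesis were higher with Jurkat CD63+ EVs, from the entry of the pathway to its last steps. Of the 17 measured, 14 had an unadjusted limma p under 0.05 in the upward direction with 16 arrays (0.825% of all genes) and 0 in the downward direction. The median difference of the list was 0.75 without bead replicate 3 and 1.17 with it. In 15 of the 17 all 3 Jurkat CD63+ arrays lay above bead replicates 1 and 2 (88.2%, against 9.61% of all genes). In 13 they lay above all 3 bead arrays (3.24% of all genes). The low values of bead replicate 3 for bright genes favour that last count, so bead replicates 1 and 2 are the fairer measure. MSMO1, which removes methyl groups from lanosterol-derived sterols, stood at 10.15, 10.02 and 10.25 with Jurkat CD63+ EVs, against 8.99, 8.84 and 4.76 with beads. It rose by 1.22 ± 0.19 with 15 arrays (limma adjusted p = 0.027). DHCR7, the reductase that turns 7-dehydrocholesterol into cholesterol, stood at 9.70, 9.84 and 9.84 with Jurkat CD63+ EVs, against 8.97, 8.71 and 4.66 with beads. It rose by 0.95 ± 0.14 with 15 arrays (limma adjusted p = 0.022). The 3 Jurkat CD63+ arrays of both genes lay within 0.3 of each other and above each bead array, and bead replicate 3 was far below the other 2.

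Most of the early enzymes also stood above the beads, and none passed the adjusted threshold with 18, 16 or 15 arrays. HMGCS1 passed it in the fit of only the 5 arrays of both groups without bead replicate 3, and HMGCS1, ACAT2, FDPS, LSS and CYP51A1 did with array weights estimated gene by gene, a setting added after seeing the data. HMGCS1, which makes HMG-CoA at the entry of the mevalonate pathway, stood at 7.72, 8.08 and 7.82 with Jurkat CD63+ EVs, against 6.68, 6.52 and 5.11 with beads. Its difference was 1.27 ± 0.25 with 15 arrays (limma adjusted p = 0.18). ACAT2, the cytosolic thiolase that supplies the first building block, stood at 7.50, 7.59 and 7.88 with Jurkat CD63+ EVs, against 6.62, 6.39 and 3.91 with beads, a difference of 1.15 ± 0.24. IDI1, FDPS, SQLE, LSS and CYP51A1, which carry isoprene units on to lanosterol and beyond, had differences of 0.81, 0.71, 0.78, 0.75 and 0.86 without bead replicate 3. For MVK, MVD and TM7SF2, where bead replicate 3 was higher than bead replicates 1 and 2, the differences without it were 0.65, 0.47 and 0.66, against 0.41, 0.40 and 0.22 with it. PMVK, which phosphorylates mevalonate phosphate, stood at 5.22, 5.17 and 5.24 with Jurkat CD63+ EVs, against 5.24, 5.19 and 5.95 with beads. GGPS1, which makes the precursor of protein prenylation on a side branch, differed by 0.07 without replicate 3.

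Genes of fatty acid synthesis and desaturation were higher in part. Of the 14 measured, 6 had an unadjusted p under 0.05 upward (0.825% of all genes) and 0 downward with 16 arrays, with a median difference of 0.38, against 1.42 with bead replicate 3 included. SCD, which puts the first double bond into saturated fatty acids, stood at 10.28, 10.66 and 10.47 with Jurkat CD63+ EVs, against 9.24, 9.59 and 5.91 with beads, and rose by 1.05 ± 0.15 with 15 arrays (limma adjusted p = 0.022). FASN, the fatty acid synthase, stood at 8.41, 8.85 and 8.39 with Jurkat CD63+ EVs, against 7.48, 7.67 and 5.93 with beads, and rose by 0.98 ± 0.16 (limma adjusted p = 0.037). FADS2, a desaturase of polyunsaturated fatty acids, stood at 10.42, 10.60 and 10.51 with Jurkat CD63+ EVs, against 9.74, 9.67 and 5.56 with beads, and rose by 0.80 ± 0.12 (limma adjusted p = 0.022). In all 3 genes the EV arrays lay above each bead array. FADS1, the neighbouring desaturase, had a difference of 0.65 ± 0.14 without passing the threshold. ACLY, which makes cytosolic acetyl-CoA, and ACACA, which commits it to fatty acids, differed by 0.27 and 0.35, with bead replicate 1 within 0.3 of the lowest Jurkat CD63+ array in both.

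Among the genes of sterol sensing and uptake, INSIG1 had the largest difference without bead replicate 3, while with it NPC1, which moves cholesterol out of lysosomes, stood at 1.99 and INSIG1 at 1.90. INSIG1, which keeps SREBP in the endoplasmic reticulum, stood at 9.27, 9.53 and 9.48 with Jurkat CD63+ EVs, against 8.10, 8.14 and 6.33 with beads. The groups did not overlap, and the rise was 1.30 ± 0.22 with 15 arrays, or 2.47-fold (limma adjusted p = 0.047). SREBF2 stood at 8.68, 8.85 and 8.55 with Jurkat CD63+ EVs, against 8.09, 8.19 and 5.74 with beads, a difference of 0.56 ± 0.12 (limma adjusted p = 0.21). SREBF1 differed by 0.19 ± 0.14 and its groups overlapped. Of the 12 genes of sterol sensing and uptake, 3 had an unadjusted p under 0.05 upward (0.825% of all genes) and 0 downward with 16 arrays: INSIG1, SREBF2 and LPIN1, a phosphatidate phosphatase that also restrains SREBP. The 8 genes of sterol efflux, targets of the LXR receptors, had a median of 0.20, and 2 of them, ABCG1 and SCARB1, had an unadjusted p under 0.05 upward, against the same 0.825% of all genes. ABCA1, the efflux pump that LXR drives, stood at 6.60, 6.87 and 6.73 with Jurkat CD63+ EVs, against 6.66, 6.82 and 5.58 with beads. Over the 42 genes of synthesis, desaturation, sensing and uptake together, 30 had all 3 Jurkat CD63+ arrays above bead replicates 1 and 2 (71.4%, against 9.61% of all genes). In 26 they lay above all 3 bead arrays (61.9%, against 3.24%), a count that the low values of bead replicate 3 favour for bright genes.

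**Figure D3:**
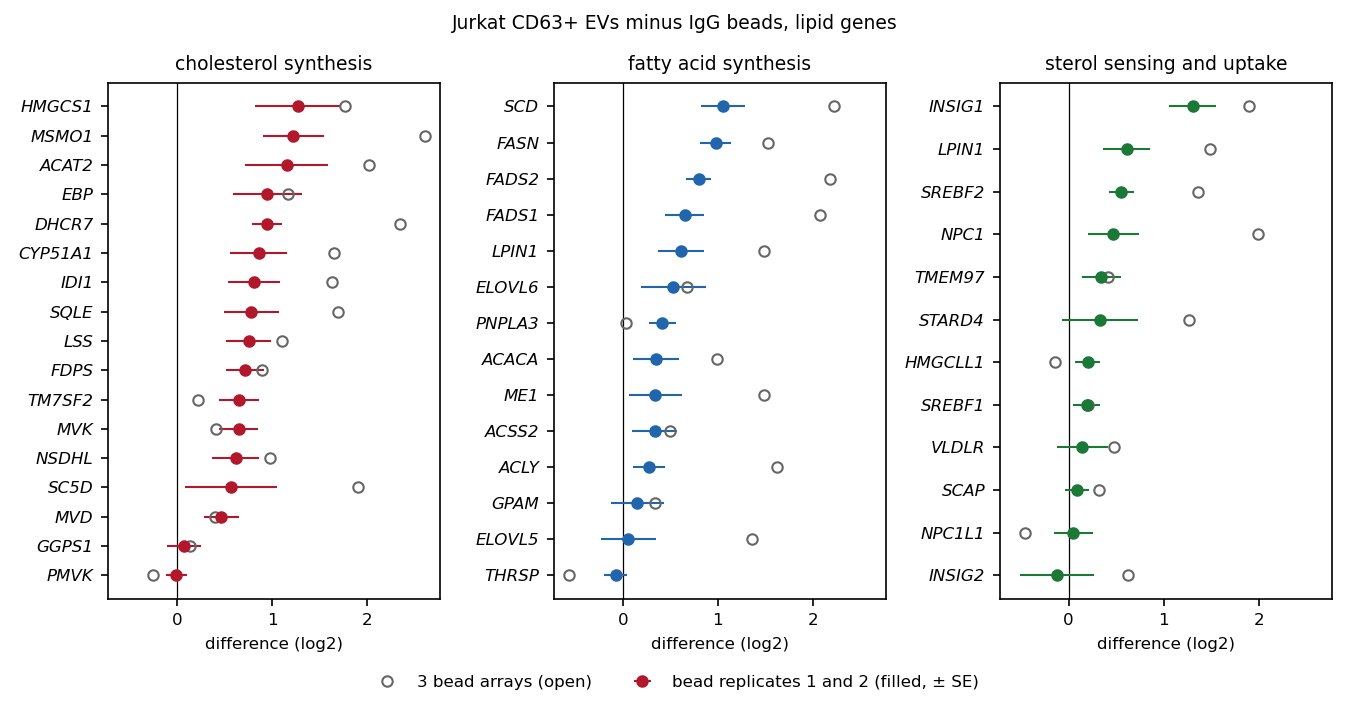
Difference (log2, Jurkat CD63+ EVs minus IgG beads) of each lipid gene with bead replicates 1 and 2 (filled points, bars are the SE of the 16-array fit) and with all 3 bead arrays (open points). Without replicate 3 the largest differences are 1.30 for INSIG1, 1.27 for HMGCS1 and 1.22 for MSMO1, and with it most bright genes shift further to the right.

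Interferon-stimulated genes stood lower with Jurkat CD63+ EVs than in bead replicates 1 and 2, and none was called. Of the 29 measured, 28 had a negative difference with 16 arrays (over all genes 52.9% were positive), 7 with an unadjusted limma p under 0.05 (0.728% of all genes) and 0 upward. The median difference was -0.33. With all 3 bead arrays it was 0.83 and 25 of the 29 were positive (45.9% of all genes), so the direction of this list changed when bead replicate 3 was left out. MX2, an antiviral GTPase, stood at 9.48, 9.50 and 9.55 with Jurkat CD63+ EVs, against 10.16, 10.20 and 5.34 with beads. MX1, its paralogue, stood at 10.02, 10.30 and 10.21 with Jurkat CD63+ EVs, against 10.64, 10.70 and 6.45 with beads. The differences without replicate 3 were -0.67 ± 0.17 for MX2 and -0.49 ± 0.13 for MX1. OAS3, which makes the messenger that activates RNase L, and RSAD2, the antiviral enzyme viperin, differed by -0.50 ± 0.15 and -0.66 ± 0.29. In 20 of the 29 genes all 3 Jurkat CD63+ arrays lay below bead replicates 1 and 2 (69.0%, against 8.63% of all genes).

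Genes of G2 and mitosis averaged below bead replicate 1 but hardly below replicate 2, and none was called. The list averaged 6.01, 5.78 and 6.05 with Jurkat CD63+ EVs, against 6.50, 6.04 and 5.04 with beads, so Jurkat CD63+ replicate 3 was not below bead replicate 2 and all 3 were above bead replicate 3. Of the 37 measured, 36 had a negative difference from the mean of bead replicates 1 and 2 (52.9% of all genes were positive), and 15 had all 3 EV arrays below both (8.63% of all genes). With 16 arrays 8 had an unadjusted p under 0.05 downward (0.728% of all genes) and 0 upward, and the median was -0.32. With 3 bead arrays the median was 0.01. BUB1B, a kinase of the spindle checkpoint, stood at 5.43, 5.12 and 5.25 with Jurkat CD63+ EVs, against 6.31, 5.99 and 5.12 with beads. Its difference was -0.89 ± 0.17 with 15 arrays (limma adjusted p = 0.16). ASPM, a spindle pole protein, stood at 5.98, 5.77 and 6.02 with Jurkat CD63+ EVs, against 6.73, 6.54 and 4.66 with beads. MKI67, the proliferation marker Ki-67, stood at 7.29, 7.20 and 7.47 with Jurkat CD63+ EVs, against 7.95, 7.72 and 6.96 with beads. The 29 genes of G1/S and replication had a median of -0.01 without bead replicate 3. With 16 arrays 0 had an unadjusted p under 0.05 in either direction, and with 15 arrays 1 did, upward (1.41% of all genes). In bulk RNA, fewer dividing cells and less of these transcripts per cell cannot be told apart.

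Adhesion molecules and cytokines of activated endothelium, targets of NF-kB, leaned the same way. Of the 27 measured, 4 had an unadjusted p under 0.05 downward (0.728% of all genes) and 0 upward with 16 arrays, and the median was -0.17, against 0.28 with bead replicate 3. In 4 members, VCAM1, CXCL6, CSF3 and TNFAIP2, the Jurkat CD63+ arrays lay below all 3 bead arrays (3.1% of all genes), and VCAM1 and CSF3 had an unadjusted p under 0.05 downward with 18 arrays too (0.472%). VCAM1, which binds leukocyte integrins, stood at 4.40, 4.38 and 4.28 with Jurkat CD63+ EVs, against 4.86, 4.93 and 4.90 with beads, and the difference was -0.54 with 18 and with 16 arrays (SE 0.18 and 0.15). SELE, the endothelial selectin, stood at 7.66, 7.86 and 7.79 with Jurkat CD63+ EVs, against 8.32, 8.71 and 5.40 with beads. CXCL8, the neutrophil chemokine interleukin 8, stood at 9.18, 9.47 and 9.46 with Jurkat CD63+ EVs, against 9.98, 9.71 and 6.86 with beads. None of these passed the adjusted threshold.

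TGFBI fell by 0.77 ± 0.11 with 15 arrays (limma adjusted p = 0.022), to 0.588 times the level of the beads. It stood at 7.92, 8.04 and 7.99 with Jurkat CD63+ EVs, against 8.81, 8.69 and 7.38 with beads. With bead replicate 3 the groups overlap and the difference was -0.31 ± 0.36. TGFB2, a TGF-beta ligand, stood at 9.63, 9.53 and 9.64 with Jurkat CD63+ EVs, against 10.37, 10.45 and 6.55 with beads, and differed by -0.81 ± 0.14 with 15 arrays (limma adjusted p = 0.078). INHBA, the subunit of activin A, differed by -0.61 ± 0.17. Of the 27 genes of the TGF-beta pathway these 3 had an unadjusted p under 0.05 downward with 16 arrays (0.728% of all genes), and ID2, a target of BMP signalling, had one upward at 0.41 (0.825%). Of the 37 matrix genes 5 were lower at that level and 1 higher, against the same shares of all genes. P3H2, a collagen prolyl hydroxylase, stood at 7.21, 6.56 and 6.58 with Jurkat CD63+ EVs, against 7.84, 7.56 and 7.14 with beads, so that 1 EV array overlapped bead replicate 3. MMP10, a matrix metalloproteinase, differed by -0.98 ± 0.23 without replicate 3 and by -0.12 ± 0.64 with it. ADAMTS4, an aggrecan-cleaving protease, stood at 6.64, 6.59 and 6.60 with Jurkat CD63+ EVs, against 5.97 to 6.29 with beads, a difference of 0.47 ± 0.14.

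Among 12 genes of the shear stress response, KLF4, a transcription factor of quiescent endothelium, stood at 6.07, 6.17 and 5.98 with Jurkat CD63+ EVs, against 5.43, 5.49 and 5.81 with beads. THBD, the anticoagulant receptor thrombomodulin, stood at 7.85, 7.68 and 7.61 with Jurkat CD63+ EVs, against 7.40, 7.19 and 6.47 with beads. Neither group pair overlapped, and 3.24% of all genes lay above all 3 bead arrays. The differences were 0.61 ± 0.18 and 0.42 ± 0.12 with 15 arrays, neither past the adjusted threshold. The list as a whole was mixed, with 7 genes above 0, 5 below and a median of 0.06 without bead replicate 3. With 16 arrays 2 of the 12 had an unadjusted limma p under 0.05 upward (0.825% of all genes) and 1 downward (0.728%). EDN1, the vasoconstrictor endothelin 1, stood at 10.78, 10.72 and 10.79 with Jurkat CD63+ EVs, against 11.19, 11.13 and 6.42 with beads, a difference of -0.40 ± 0.12. NDRG1, a gene induced by hypoxia, was the 1 member of 22 hypoxia and glycolysis genes with an unadjusted p under 0.05 (upward, 0.825% of all genes with 16 arrays), at 0.57 ± 0.13. CD63 itself stood at 11.02, 11.12 and 11.20 with Jurkat CD63+ EVs, against 11.08, 10.997 and 8.69 with beads, and CD47 differed by -0.15 ± 0.19 without replicate 3. Of the small RNAs named by the rule, the precursor MIR32 stood at 4.02, 3.70 and 4.16 with Jurkat CD63+ EVs, against 4.72, 4.56 and 4.35 with beads, and SNORD114-2 at 3.47, 3.56 and 3.52, against 4.26, 4.05 and 3.56. CXCR4, a chemokine receptor, and GBP7, an interferon-inducible GTPase, differed by -0.63 ± 0.20 and -0.45 ± 0.12. These 4, with VCAM1, were the genes below all 3 bead arrays with an unadjusted p under 0.01, and 3.1% of all genes lay below all 3 bead arrays.

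**Figure D4:**
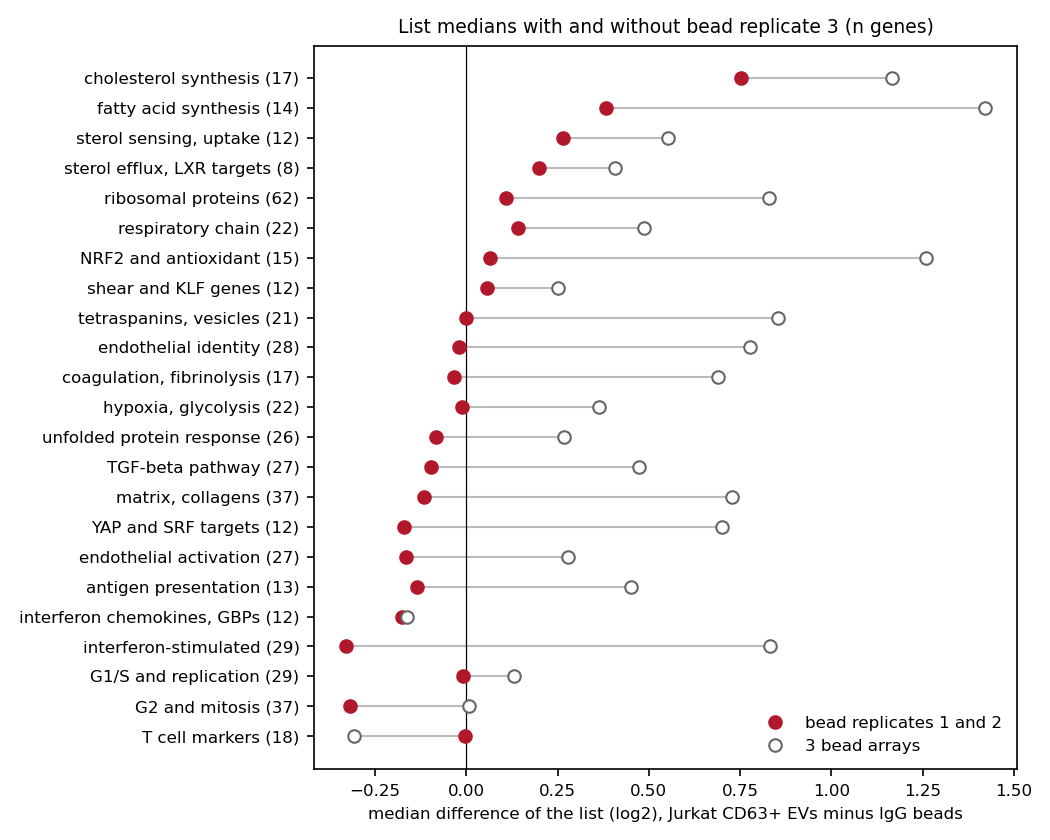
Median difference (log2, Jurkat CD63+ EVs minus IgG beads) of 23 gene lists with bead replicates 1 and 2 (filled points) and with all 3 bead arrays (open points). Without replicate 3 cholesterol synthesis lies highest at 0.75 and interferon-stimulated genes lowest at -0.33, while with it the interferon list lies at 0.83.

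Of the 37 lists, 16 had a median above 0 with bead replicate 3 and below 0 without it, and 2 the reverse. The lipid lists kept their sign, and their medians were larger with replicate 3. The levels behind this differ: bright genes are raised and dim genes lowered in any difference that includes that array, as the medians by level show, and its part in each list's value with 18 arrays was not tested beyond leaving it out.

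**Figure D5:**
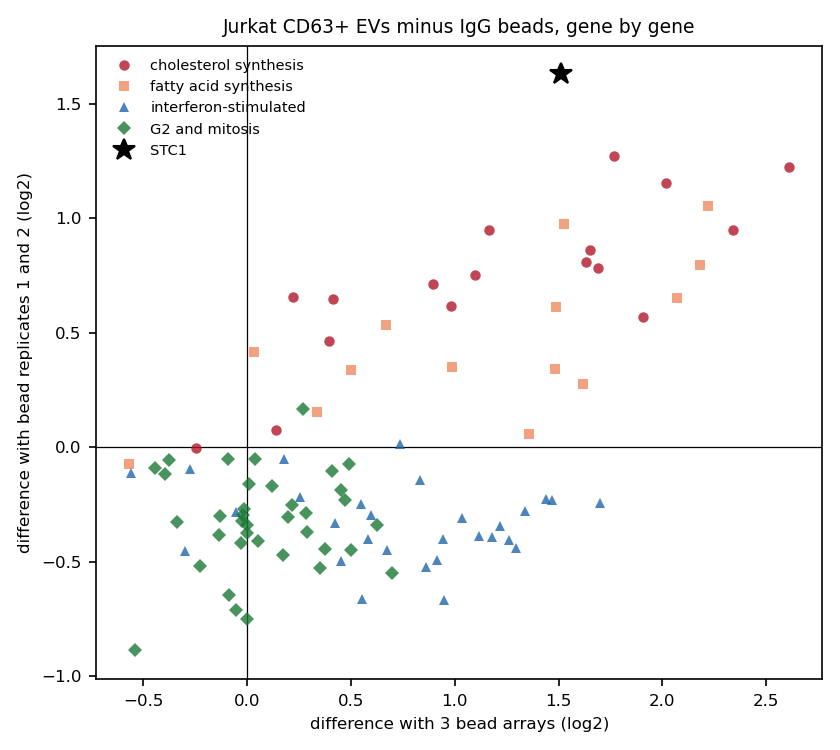
Difference (log2, Jurkat CD63+ EVs minus IgG beads) of single genes with all 3 bead arrays (horizontal axis) and with bead replicates 1 and 2 (vertical axis). STC1 lies at 1.51 and 1.63, cholesterol genes lie above 0 on both axes except PMVK, and most interferon-stimulated genes lie right of 0 and below 0.

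Untreated HUVEC gave a control without beads. STC1 stood at 6.66, 6.93 and 6.43 in untreated cells, and the rise with Jurkat CD63+ EVs over untreated cells was 1.43 ± 0.14 with 16 arrays (limma adjusted p = 0.00084). With 15 arrays 10 genes rose over untreated cells (0.0543% of the genes tested) and 2 fell (0.0109%). The rises were STC1, INSIG1, MSMO1, DHCR7, SCD, FASN, FADS2, HMGCS1, CYP51A1 and LSS, and the falls were TGFBI and MX2. HMGCS1 rose by 1.60 ± 0.25 over untreated cells (limma adjusted p = 0.023), and MX2 fell by 0.88 ± 0.14 (limma adjusted p = 0.023). Of the 17 cholesterol genes 13 had an unadjusted p under 0.05 upward against untreated cells with 16 arrays (1.15% of all genes), and of the 29 interferon-stimulated genes 12 had one downward (1.33%). Both comparisons use the same 3 Jurkat CD63+ arrays, so they are given side by side and not as independent results.

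Jurkat CD63+ EVs were then set against the other EV groups that share their donor line or their capture. Against CD63+ EVs of JinB8, limma called 0 genes in the 18, 16 or 15 arrays, with 41 higher (0.223%) and 6 lower (0.0326%) at an unadjusted p under 0.05 in the 18 arrays and 411 higher (2.23%) and 329 lower (1.79%) in the 16. STC1 stood at 8.19, 8.28 and 8.21 with Jurkat CD63+ EVs, against 8.78, 8.84 and 8.72 with JinB8 CD63+ EVs, groups that did not overlap. The difference was -0.55 ± 0.13 (limma adjusted p = 0.87). Of the 37 mitotic genes 36 were higher with Jurkat CD63+ EVs than with JinB8 CD63+ EVs (53.3% of all genes were), and the median was 0.43. With 16 arrays 19 of them had an unadjusted p under 0.05, and with 18 arrays 1 did. The 17 cholesterol genes had a median of -0.12 in that comparison. With 16 arrays 1 of them had an unadjusted p under 0.05 upward (2.23% of all genes) and 0 downward (1.79%).

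Against MHC1+ EVs of the same Jurkat cells, STC1 was the 1 gene called in the 16 and in the 15 arrays, and 0 were called in the 18, where 65 were higher (0.353%) and 16 lower (0.0869%) at an unadjusted p under 0.05. STC1 stood at 8.19, 8.28 and 8.21 with CD63+ EVs, against 7.38, 7.36 and 7.07 with MHC1+ EVs, and was higher by 1.01 ± 0.13 with 15 arrays (limma adjusted p = 0.025). The gene lists in this comparison depended on Jurkat MHC1+ replicate 1. Of the 42 lipid genes, 12 had an unadjusted p under 0.05 upward with 16 arrays (7.1% of all genes) and 0 downward (3.88%), with a median of 0.33. Without that array 0 had one, whether upward (1.35% of all genes) or downward (0.907%), and the median was 0.11. Of the 37 mitotic genes 22 had one upward with 16 arrays, with a median of 0.46, and 11 without that array, with a median of 0.28. TGFBI differed by -0.40 ± 0.11 with 15 arrays. The direct comparison with JinB8 and that with MHC1+ EVs share the Jurkat CD63+ arrays.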

How the data were processed

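Gene expression was measured on 18 whole-transcript Affymetrix arrays, 3 per group, from 300 ng of RNA each. The authors deposited log2 signals made with Affymetrix Expression Console and RMA, per the submitters' processing notes (program versions: not given in the sources used here). The log2 scale was read from the values. Of 33297 probe sets, 19460 had 1 gene symbol in GEO's platform annotation, 1754 had several and 12083 had none. The probe set with the highest mean over 18 arrays was kept per symbol, which left 18417 genes, 18389 of them matched to RefSeq by Entrez number. One mean per group was fitted over all 18 arrays by lmFit and eBayes of limma 3.58.1 (R 4.3.3), and p-values were adjusted by Benjamini-Hochberg over all genes and called at an adjusted p under 0.05. The fits were also run on simulated data, but no outcome of that run is reported here. It is therefore not used to judge how the fits handle a compressed array such as bead replicate 3.

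The members, gene lists and tests were chosen with earlier results of these data known. Text genes were those called in any of the fits of 18 to 15 arrays, the 10 largest rises and falls without bead replicate 3 among genes whose groups did not overlap and whose unadjusted p was under 0.01, up to 5 members per list, and preset genes. Others were added from the lists after their values were seen. Alternatives were array weights, filters on dim genes, a fold minimum, a repeated quantile normalization, trend and robust options, only the groups compared, and leaving out arrays. The RNA kit differs between the labels and the series' design text.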

Additional observations from a re-analysis of the deposited data

Results flagged for a closer look

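STC1 differed between the CD63+ and MHC1+ captures of the same Jurkat EVs. It was higher with CD63+ EVs by 0.96 with 16 arrays and by 1.01 with 15 arrays (limma adjusted p = 0.025 with 15). All 3 CD63+ arrays (8.19, 8.28 and 8.21) lay above all 3 MHC1+ arrays (7.38, 7.36 and 7.07). With all 18 arrays the gene was not called in this comparison.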

How the results depend on the processing

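Against the beads, 1 gene was called with 18, 17 and 16 arrays. The count was 8 with 15 arrays, 4 with only the 5 arrays of the groups compared, 22 with array weights estimated gene by gene (added after seeing the data), and 0 with only the 6 arrays of the groups compared, with a minimum of 1.5-fold, with a repeated quantile normalization, and with the trend and robust options of limma. At an unadjusted p under 0.05 there were 195 genes with 18 arrays, 29 with only the 6 arrays, 264 after quantile normalization and 198 with trend and robust. Leaving out 1 array gave 0 to 1. Array weights by the default method did not converge. They ran from 0.00514 for bead replicate 3 to 695 for untreated replicate 1. This setting gave 4039 calls against the beads, 9265 against untreated cells, 358 against JinB8 CD63+ EVs and 6230 against Jurkat MHC1+ EVs. Under these weights the sign turned for MX2 (-0.69), MX1 (-0.55), OAS3 (-0.56), RSAD2 (-0.76), CXCL8 (-0.38), SELE (-0.95), TGFB2 (-0.84), INHBA (-0.45), EDN1 (-0.36), VWF (-0.43) and STC2 (-0.22), as it does without bead replicate 3. Against untreated cells 12 genes were called with 15 arrays and 0 with a minimum of 1.5-fold, with quantile normalization and with trend and robust. Against Jurkat MHC1+ EVs 1 was called with 16 and with 15 arrays. The cause of these changes was not tested. The ranges that follow split the settings by bead replicate 3. Gene-by-gene array weights, which keep that array at a weight of 0.0199, were counted with the settings without it. The default array weights, which also keep it, were left out of both ranges. For STC1 the difference ran from 1.56 to 1.69 without that array and from 0.99 to 1.53 with it. That for INSIG1 ran from 1.25 to 1.38 and from 1.55 to 2.21. That for TGFBI ran from -0.82 to -0.71 and from -0.82 to -0.05. With the default weights the differences for STC1, INSIG1 and TGFBI were 1.56, 1.25 and -0.72. No paired analysis was possible because the labels give no replicate numbers that tie arrays across groups. The limits are the 2 concordant bead arrays, the unknown EV dose, the pooled EV preparation and the unstated origin of the replicates.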

Other observations

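Some further gene classes had positive medians against bead replicates 1 and 2, and none held a called gene. Of 77 H/ACA box snoRNAs and scaRNAs, which guide pseudouridylation, 55 had a positive difference, with a median of 0.17. Of these 77, 3 had an unadjusted limma p under 0.05 upward with 16 arrays (0.825% of all genes) and 6 with 15 arrays (1.41%). Of 62 ribosomal protein genes 55 were positive, with a median of 0.11, and of 22 respiratory chain genes 17 were, with a median of 0.14. All genes together had 52.9% positive differences. At an unadjusted p under 0.05, 0 ribosomal protein genes passed with 16 arrays and 1 with 15, and 0 respiratory chain genes passed with either. The medians of the ribosomal protein and respiratory chain genes rest on bead replicate 2 as well. The ribosomal protein genes averaged 9.44, 9.46 and 9.49 with Jurkat CD63+ EVs, against 9.52 in bead replicate 1 and 9.19 in bead replicate 2. The respiratory chain genes averaged 7.34, 7.37 and 7.55 with Jurkat CD63+ EVs, against 7.56 in bead replicate 1 and 7.02 in bead replicate 2, so the EV arrays lay below bead replicate 1 in both lists. With bead replicate 3 the medians of the 3 classes were 0.10, 0.83 and 0.49. The 173 microRNA precursors had a median of 0.03 without that array and -0.24 with it.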
